A study of Mus musculus with 12 samples.

Results

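The peaks described here are m6A peaks that the authors labelled as 5′ UTR but placed past the start of the transcript, by a distance above 0. They number 872 in 832 genes, out of 17503 listed peaks with a gene name in the liver of C57BL/6 mice. Which transcript gave the 5′ UTR label is not stated, and it need not be the one from which the distance was counted, so distances and membership rest on the deposited columns as they stand. The other 3380 peaks labelled 5′ UTR cover the transcript start, at a distance of 0. The study compared wild-type with Mettl3-deficient mice by m6A RNA immunoprecipitation and sequencing, in 12 libraries. These form 4 groups of 3 biological replicates, an IP and an input group for each genotype. Both genotypes were of the C57BL/6 strain, and the title places the work in postnatal liver. The allele, any Cre driver, the cells in which Mettl3 was lost and the exact age of the mice were not given in the sources used here. The libraries came from liver tissue as a whole, so fewer cells of a type and less RNA per cell cannot be told apart. In the authors' deposited table each peak has a log2 fold change between the genotypes and a false discovery rate (FDR), with no value per library. The spread between mice is therefore unknown, and no replicate comparison was possible.

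N6-methyladenosine is placed on mRNA in the nucleus by a complex whose catalytic subunit is METTL3, mostly within a short consensus that centres on GGAC or a close relative. The mark is densest in long internal exons, around stop codons and in 3′ UTRs, and a smaller part lies in 5′ UTRs, where it has been tied to translation that does not need the cap. The first nucleotide after the cap can carry a related mark, m6Am, which another enzyme, PCIF1, writes and which m6A antibodies also bind.

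Only a small part of these peaks could be read as sequence. RefSeq start windows of assembly GRCm38.p6, the same build as mm10, were used, and 704 of the 872 peaks belonged to a gene with such a window on their chromosome. Of these, 131 shared at least 1 base with the first 50 bases after a RefSeq start. The letters GGAC were looked for there on the transcribed strand, because they form the core of the commonest m6A consensus. Among the called peaks, defined below, 70 shared such bases, 20 of them negative and 50 positive. GGAC lay in the shared bases of 8 genes, of which 3 changed negatively and 5 positively. The following stretches, 5′ to 3′ with GGAC in capitals, come from 6 of these genes and show that the core was found beside changes of either sign.
Extl1: ctggagtgGGACctggagct
Saysd1: gcggccgaGGACaggc
Sord: ggtccagcGGACacctcgaa
Adk: gtgtaaGGACgagctctc
Rabggta: ctgcctccGGACccctc
Ppp1r12b: gtctggaaGGACttaggaaa
The stretches lie at chr4:134372520-134372539 on the minus strand (Extl1, log2 fold change -2.87 in the authors' deposited table), chr14:20083123-20083138 on the minus strand (Saysd1, -2.00) and chr2:122234860-122234879 on the plus strand (Sord, 0.69). Those of Adk (chr14:21076172-21076189, plus strand), Rabggta (chr14:55721874-55721890, minus strand) and Ppp1r12b (chr1:134803807-134803826, minus strand) had 0.74, 1.09 and 2.02, per the authors' deposited table. Adk and Ppp1r12b begin 20 and 6 bp past a RefSeq start of their gene, but 23598 and 152104 bp past the start in the authors' deposited table. GGAC was present in 8 of the 41 windows of 50 bases that lay wholly inside such a peak (19.5%), and in 18.9% of all 32851 RefSeq start windows of that length. On the other strand it was present in 9 of the 41 and in 17.4% of all windows. A match of these letters is a description and not a methylated site.

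No source used here states which genotype the fold change is divided by. From the design, a negative value likely stands for less m6A enrichment in Mettl3-deficient liver, and the text speaks of negative and positive changes only. A peak was called at a deposited FDR of 0.05 or below. Of the 872 peaks 569 were called (65.3%), against 76.2% of all listed peaks. The called peaks divided almost evenly, with 286 negative and 283 positive. Over all listed peaks, 40.6% were called and negative and 35.6% called and positive. The negative share of called peaks was thus 50.3% (95% Wilson interval 46.2 to 54.4, counting error over peaks only), against 53.3% over all listed peaks. The 2 directions differed in size: negative changes had a median of -1.38 (quartiles -1.91 and -1.01) and positive changes a median of 0.78 (quartiles 0.58 and 1.03), against -1.34 and 0.73 over all listed peaks. A negative change of at least 1 in size was seen in 220 peaks (76.9% of the negative ones), and a positive one in 78 (27.6%). With that minimum on size 73.8% of the remaining peaks were negative, while over all listed peaks 29.0% were called and negative by at least 1 and 7.80% called and positive by at least 1. The 303 peaks that were not called did not have smaller changes: their median absolute log2 fold change was 1.25, against 1.03 in the called ones, and 230 of them were positive and 73 negative. The size and sign of peaks not called were not summarised over all listed peaks.

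**Figure D1:**
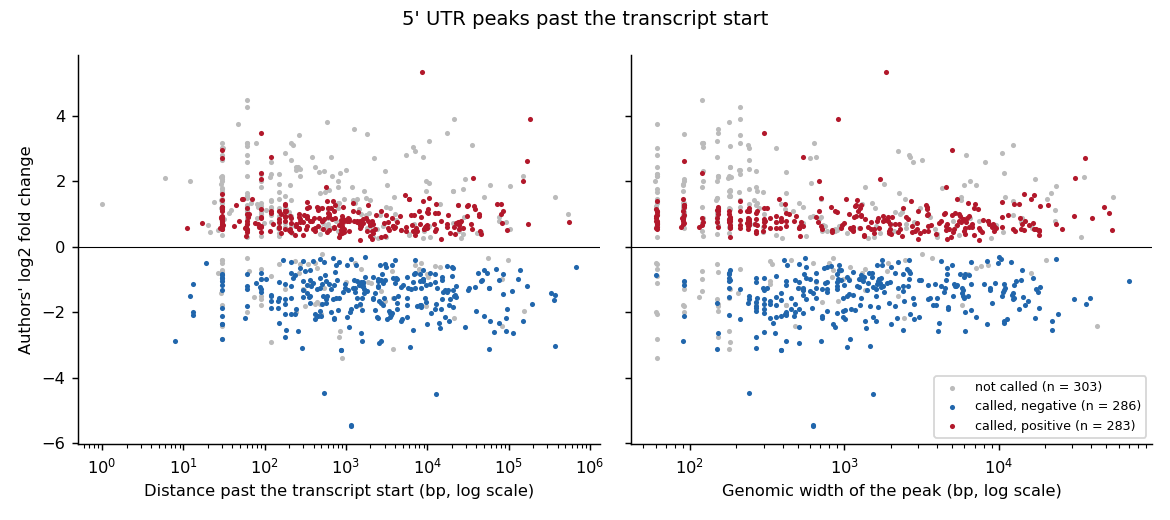
The authors' log2 fold change of each of the 872 peaks against its distance past the transcript start (left) and its genomic width (right), both on log axes, with 286 called negative peaks in blue, 283 called positive peaks in red and 303 peaks not called in grey. Blue points are sparse at the shortest distances and widths, and the positive called points lie in a narrower band (quartiles 0.58 and 1.03) than the negative ones (quartiles -1.91 and -1.01).

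The peaks ranged over several orders of magnitude in place and size. Distances ran from 1 to 680140 bp with a median of 779, counted on the genome, so introns are included. Widths ran from 59 to 69739 bp, also with introns, with a median of 839, which lies between that of 5′ UTR peaks at the start (1499) and of 3′ UTR peaks (420). At the inner edge of the class stood Cramp1l at 1 bp, Gipc2 at 6 bp and Extl1 at 8 bp, and just outside it the 3380 peaks at 0. Of these 3, Extl1, an exostosin-like glycosyltransferase gene, was called. Short distances piled up at multiples of 30 bp: 72 peaks stood at exactly 30 bp, 38 at 60 bp, 19 at 90 bp and 13 at 120 bp. At most 30 bp separated 96 peaks from the start. Among these, 18 of 51 called had a negative change (35.3%, 23.6 to 49.0 by Wilson's method).

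The negative share was higher further from the transcript start. Up to 100 bp away, 29 of 93 called peaks had a negative change (31.2%, 95% Wilson interval 22.7 to 41.2), and from there to 1000 bp 83 of 180 (46.1%, 39.0 to 53.4). Between 1000 and 10000 bp 105 of 177 were negative (59.3%, 52.0 to 66.3), and beyond 10000 bp 69 of 119 (58.0%, 49.0 to 66.5). The interval of the nearest class did not reach those of the classes beyond 1000 bp, which overlapped each other. Among peaks of at most 1000 bp the shares were 26.8%, 37.8%, 58.9% and 73.5% in the same order, with 41, 90, 73 and 49 called peaks. The share of peaks that passed the FDR threshold also differed, from 47.9% of the 194 nearest to 74.4% of the 160 farthest. Across the 569 called peaks the Spearman correlation of distance with log2 fold change was -0.17, and across the 253 of at most 1000 bp it was -0.26. These are descriptions over peaks that share the same libraries, and no test was run.

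Distance from the nearest RefSeq start of the gene, a measure that does not depend on the transcript the authors chose, gave a like order. The 44 peaks that covered a RefSeq start of their gene had 6 negative among 28 called (21.4%, 95% Wilson interval 10.2 to 39.5). Called peaks 1 to 50 bp past a RefSeq start were negative in 14 of 42 (33.3%), those at 51 to 1000 bp in 74 of 178 (41.6%) and those further in 131 of 200 (65.5%, 58.7 to 71.7). A further 37 peaks lay before the nearest RefSeq start, with 6 negative of 17 called. Covering a RefSeq start was less frequent here (6.25% of 704 peaks) than among 5′ UTR peaks at the start (60.1% of 2711). The split of 5′ UTR peaks by whether they cover a transcript start made such a gap likely in advance.

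Width carried a pattern of its own. Of called peaks up to 200 bp wide 17 of 74 had a negative change (23.0%, 95% Wilson interval 14.9 to 33.7), of those over 200 and up to 500 bp 53 of 102 (52.0%, 42.4 to 61.4), of those over 500 and up to 2000 bp 107 of 170 (62.9%, 55.5 to 69.8) and of wider ones 109 of 223 (48.9%, 42.4 to 55.4). Over all listed peaks the shares in the same order were 36.5%, 48.8%, 68.6% and 48.1%, highest in the same class. The narrow peaks were also seldom called, at 36.3% of 204, against 46.2% of all listed peaks of that width. All 24 peaks at the floor of the deposited log10 FDR, -434, were wider than 500 bp. Over all listed peaks that floor held 14, 67, 268 and 136 peaks in the same order of width, so most were wide there too.

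**Figure D2:**
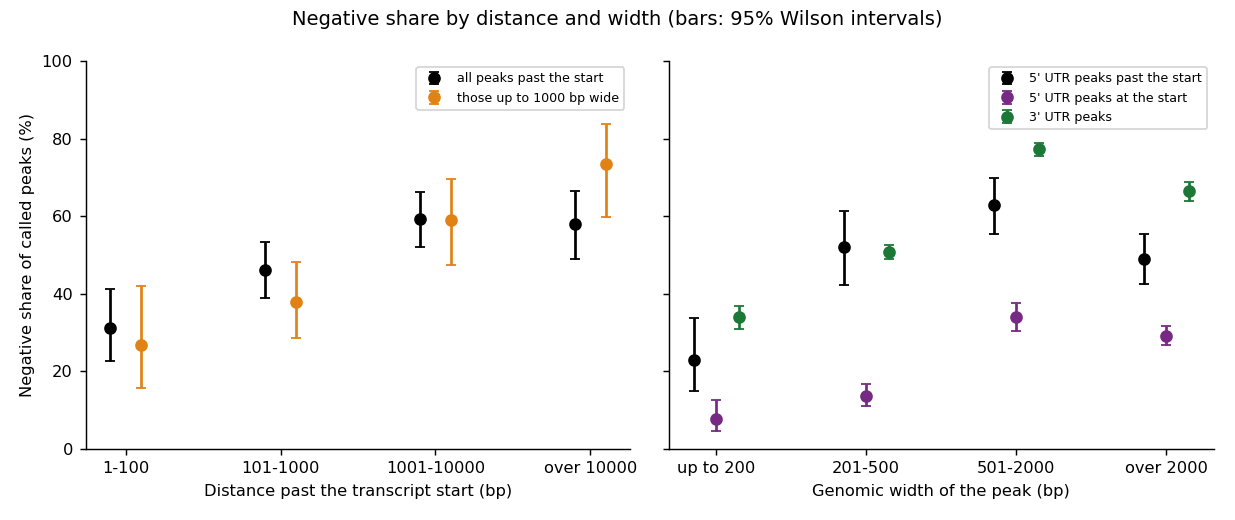
Negative share of called peaks, in percent, by distance class (left, all peaks past the start in black and those of at most 1000 bp in orange) and by width class (right, peaks past the start in black, 5′ UTR peaks at the start in purple and 3′ UTR peaks in green), with 95% Wilson intervals as bars. On the left the share goes from 31.2% in the nearest class to 58.0% in the farthest, and on the right the black points lie above the purple ones in every class.

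Against 5′ UTR peaks at the start, the peaks past it were more often negative at every width. The shares were 50.3% of 569 and 25.8% of 2680 called peaks, a difference of 24.4 percentage points (95% interval from the Wilson bounds 20.01 to 28.8). By width class the differences were 15.4 points (5.86 to 26.6) up to 200 bp, 38.4 (28.3 to 48.2) from there to 500 bp, 29.0 (20.6 to 36.7) between 500 and 2000 bp and 19.8 (12.8 to 26.7) above. The intervals count peaks and not mice, and no test was run. Compared with 3′ UTR peaks, of which 60.4% of 7943 called were negative, the shares were 62.9% and 77.3% between 500 and 2000 bp and 48.9% and 66.5% above 2000 bp. Between 200 and 500 bp both were close to even, at 52.0% and 50.8%, and up to 200 bp the shares were 23.0% and 33.9%. The sizes of called positive changes had the same median, 0.78, past the start and at the start, whereas negative changes had medians of -1.38 and -1.19.

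Distance and width were weakly related among all called peaks (Spearman 0.12). They were more closely related among the 253 of at most 1000 bp (0.39), where width had a correlation of -0.35 with log2 fold change, so the distance pattern in that subset is not separate from width. In the nearest 100 bp, 3 of 19 called peaks up to 200 bp wide were negative. Between 1000 and 10000 bp, at a width of 500 to 2000 bp, 48 of 67 were (71.6%, 95% Wilson interval 59.9 to 81.0), and beyond 10000 bp at that width 32 of 45 (71.1%, 56.6 to 82.3). Peaks wider than 2000 bp beyond 10000 bp had 21 of 50 negative (42.0%, 29.4 to 55.8). The width class with the highest share was not the same at every distance. Between 100 and 1000 bp it was the widest (56.7% of 67, against 47.5% of 40 between 500 and 2000 bp wide), and beyond 10000 bp that of 200 to 500 bp (13 of 17, 76.5%). Several cells held fewer than 20 called peaks, so their shares are loose.

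**Figure D3:**
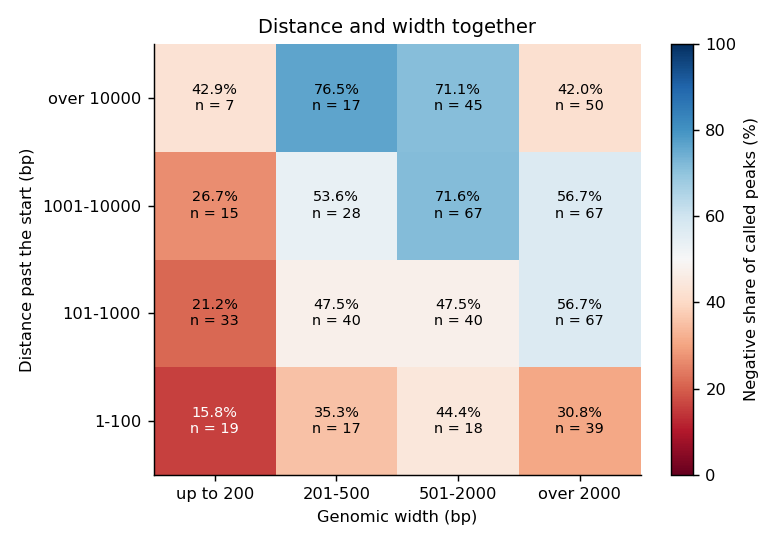
Negative share of called peaks past the start, in percent with the number of called peaks, for each pair of distance class (rows, bp) and width class (columns, bp), from red (mostly positive) to blue (mostly negative). The lowest share is 15.8% of 19 narrow peaks in the nearest class, and the highest is 76.5% of 17 peaks over 200 and up to 500 bp wide beyond 10000 bp, followed by 71.6% and 71.1% at a width of 500 to 2000 bp beyond 1000 bp.

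Wide peaks often took in much of the gene. Of 868 peaks whose gene matched RefSeq, 850 overlapped its span, and 50 covered over 75% of it. In that group 31 of 45 called peaks had a negative change (68.9%, 95% Wilson interval 54.3 to 80.5). Where peaks covered up to 1%, 1 to 5%, 5 to 25% and 25 to 75% of the span, the shares were 44.3%, 50.9%, 45.1% and 54.5%. Shares by span were not made for all listed peaks. Rnf11, a RING finger gene, is an example of a peak over 75%. Its peak begins 185 bp past the start, is 22264 bp wide and stood at -2.53 in the authors' deposited table. The peak covers 94.1% of the RefSeq span. Other negative examples, with the RefSeq share first and the value of the authors' deposited table second, were Zfp623 (99.6%, -2.37) and Tmem11, a mitochondrial membrane protein gene (78.1%, -2.21). Positive ones, given likewise from RefSeq and the authors' deposited table, were Lum, which encodes the matrix proteoglycan lumican (89.9%, 0.93), and the cystatin B gene Cstb (98.6%, 0.91). For such peaks the 5′ UTR label names only a part of the bases covered.

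The most negative called peaks belonged to genes of varied function. The authors' deposited table gives -4.50 for Zfp420, a zinc finger gene (chr7:29872873-29874417, 12894 bp past the start, a ratio of 0.0442), and -4.47 for Kiss1r, the kisspeptin receptor gene (538 bp). Both are far from the floor of the FDR scale in the authors' deposited table, the log10 FDR being -3.20 for Zfp420 and -2.15 for Kiss1r. In the authors' deposited table Usp27x, an X-linked deubiquitinase gene, stood at -3.14, Cep44, a centriole gene, at -3.09 (with a peak that covers a RefSeq start), and Cspg5, a neural proteoglycan gene, at -2.93, with log10 FDR values from -3.93 to -2.32. Much lower FDR values came with Slc20a2, a phosphate transporter gene (-3.12, log10 FDR -38.8, 58246 bp past the start), and B3galt1, a galactosyltransferase gene (-3.04, log10 FDR -45.6, 369561 bp) in the authors' deposited table. Nxt1, whose product is a partner of the mRNA export receptor, had a peak of 705 bp at 2722 bp (chr2:148675323-148676027) with -2.87, a ratio of 0.137, at the floor of log10 FDR in the authors' deposited table. Usp27x and the unnamed model Gm20634 were each listed in a pair of nearly identical rows, and Gm20634 had lower values still, -5.48 and -5.44 in the authors' deposited table.

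The lowest FDR values lay mostly on the negative side. Whether the deposited FDR takes in the spread between mice is unknown. Of the 872 peaks 24 stood at the floor of the FDR scale, 21 of them negative and 3 positive. Over all 17503 listed peaks 485 stood at that floor, and their split by sign was not counted. The genes named from here to the end of the paragraph were chosen after their values were seen. In the authors' deposited table the negative ones include Gpr146, an orphan receptor gene (-2.49, 14277 bp past the start), Eif1a, a gene for a factor of start codon recognition (-2.36, 9878 bp), and Srxn1, which encodes sulfiredoxin of the oxidant response (-2.32, 150 bp). Irf2bp2, a transcriptional corepressor gene (-2.19, 418 bp), Mgat1, the gene of an enzyme that starts complex N-glycans (-2.14, 16383 bp), and Rab9, an endosomal GTPase gene (-1.84, 20970 bp), also stood there in the authors' deposited table. The 3 positive ones in the authors' deposited table were Fgb, for the fibrinogen beta chain (0.55), Ttr, for the thyroxine carrier transthyretin (0.93), and the ATP synthase subunit gene Atp5j2 (0.64). The peaks of Fgb and Ttr both began 30 bp past the start.

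The most positive called peaks had none of the very low FDR values. The unnamed model Gm21188 had the highest value in the authors' deposited table, 5.32 with a log10 FDR of -1.40, and those with an established symbol follow. In the authors' deposited table Rasal2, a gene for a Ras GTPase-activating protein, stood at 3.91 (181561 bp past the start), the neuropilin gene Nrp2 at 3.47 (90 bp), Prr11 at 2.95 (30 bp) and Tspyl3 at 2.73 (119 bp). The same source, the authors' deposited table, gives 2.72 for Exph5, a Rab27 effector gene, 2.62 for Rbpj, the transcription factor of Notch signalling, 2.25 for the tRNA deaminase gene Adat2 and 2.11 for Arntl, which encodes the clock factor BMAL1. Their log10 FDR values ran from -1.33 for Exph5 to -4.29 for Nrp2 in the authors' deposited table. No gene held called peaks past the start of both signs. Of 9 genes with at least 2 called peaks that did not overlap, 6 were negative throughout and 3 positive throughout. Foxo3, a forkhead factor of insulin signalling, had -2.28 and -1.27, and Rara, a retinoic acid receptor gene, -1.52 and -1.26, per the authors' deposited table. The positive cases there were Dap3 (0.68 and 1.33), Hnrnpk (0.59 and 0.69) and Pon3 (0.77 and 1.03) in the authors' deposited table.

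At the extremes of place and size the signs were mixed. Farthest from the start, by the authors' deposited table, were the called peaks of Prkg1, a cGMP-dependent kinase gene (680140 bp, -0.63), Fgfr2, a fibroblast growth factor receptor gene (547767 bp, 0.75), Oxr1 (372525 bp, -1.46) and B3galt1. The peak labelled Fgfr2, at chr7:132569915-132575583, lies outside the RefSeq span of that gene and within the span of Oat, which encodes ornithine aminotransferase. Of 18 matched peaks outside the span of the gene they were labelled with, 12 overlapped that of another established symbol. Nearest to the start were, in the authors' deposited table, Extl1 (8 bp, -2.87), the phosphoglucomutase gene Pgm1 (11 bp, 0.58), Tet3, a gene for a 5-methylcytosine dioxygenase (12 bp, -1.51), and Naip2, an inflammasome sensor gene (13 bp, -1.15). Fam120c (-2.07) and Saysd1 (-2.00) tie with Naip2 at 13 bp in the authors' deposited table. By RefSeq, Extl1 and Pgm1 had peaks that cover the start of the gene. The peak of Tet3 stood at -13085 bp from the nearest RefSeq start, before it, and that of Naip2 at 4988 bp past it. Among the farthest, B3galt1 stood 13101 bp and Prkg1 579477 bp past the nearest RefSeq start. Which peaks are extreme in place thus depends on the transcript chosen. The widest called peaks there were those of Tshz1 (69739 bp, -1.06), Sil1 (54715 bp, 0.50), Taok3 (52052 bp, 1.04) and Kpna3 (48042 bp, 1.21), again from the authors' deposited table. Of 6 called peaks 60 bp wide, the narrowest, the authors' deposited table gives -0.86 for the fucose transporter gene Slc35c1, 0.56 for the cystatin C gene Cst3, 0.94 for the proteasome gene Psma5 and 0.89 for Mttp, which loads lipid onto apolipoprotein B. Lap3 (1.16) and Tmem120a (0.79) tie with them in the authors' deposited table. Just inside the FDR threshold stood Ppp2r2d (0.71, log10 FDR -1.31) and just outside it Uap1 (-0.69, log10 FDR -1.30) in the authors' deposited table.

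Gene lists described from here on are short and chosen by hand, so a count covers the list and not every gene of that kind. Of all 10277 genes with a listed peak, 832 had one past the start. Of 22 hepatocyte transcription factors 20 had a listed peak, but only Foxa1, a pioneer factor gene, had one past the start, at -2.57 (254 bp, log10 FDR -123) in the authors' deposited table. Of 16 listed genes of the m6A machinery only the YTH reader gene Ythdc2 had one, which was not called (-1.26, log10 FDR -0.93, authors' deposited table). The list of 18 secreted proteins had Fgb and Ttr here, and the list of 34 metabolic genes had the fatty acid synthase gene Fasn (1.10) and Abcb11, the bile salt export pump gene (1.29), each of them called with a positive value in the authors' deposited table. Over all their peaks these 2 lists stood at 11 negative to 17 positive and at 25 to 9 called.

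A list of 19 genes joined stress response genes with known cases of control by upstream open reading frames, which lie in the 5′ UTR, and 3 of its genes had a peak past the start. All 3 were negative and called. The authors' deposited table gives -1.25 for Jun, an AP-1 factor gene (479 bp, log10 FDR -2.52), -0.94 for Ddit3, the gene of the stress factor CHOP (3794 bp, log10 FDR -44.5), and -0.57 for Ppp1r15a, a gene for an eIF2 phosphatase subunit (749 bp, log10 FDR -15.5). The peaks of Ddit3 and Ppp1r15a covered 31.3% and 48.3% of the RefSeq gene span, so their bases need not all be 5′ UTR. Over all 24 listed peaks of the list, 11 were negative and 12 positive, and its 7 peaks at the start held 1 negative and 6 positive. That negative one was the peak of Jun (-1.02, authors' deposited table), which overlaps the Jun peak past the start. A link of these changes to upstream open reading frames was not tested. In the list of 24 translation initiation genes, Eif1a was negative (given above), while Eif4g2 (0.77) and Eif5a (0.91) had called positive values, per the authors' deposited table. Outside the list, and chosen after their values were seen, Eif3j2 stood at -2.12, Eif1ax at 0.44, Eif2b4 at 0.50 and Denr at 0.64, all called, by the authors' deposited table. Peaks of that list were positive in 30 and negative in 8 of all cases called.

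Of the short marker lists for other liver cells, none of 9 endothelial and none of 6 erythroid genes had such a peak. Only 7 of the endothelial and 1 of the erythroid genes had any listed peak. Lum, of the stellate and matrix list, had a called positive peak, given above. The B cell gene Cd79a of the macrophage and leukocyte list had one too (2.06, authors' deposited table). The keratin gene Krt8 of the cholangiocyte list did as well (0.74, authors' deposited table). Over all classes the called peaks of the stellate and matrix list were 0 negative and 7 positive. Those of the macrophage and leukocyte list were 3 and 3, and those of the cholangiocyte list 2 and 1. Endothelial genes outside the list did have called peaks: Eng (0.65), Clec14a (0.46), Thbd (0.46) and S1pr1 (-1.66), picked with their values in view from the authors' deposited table. With at most 1 peak to a list, the part of these cells in the results was not tested. Of 5 hepatocyte markers fixed for the check of the tissue, 4 had a listed peak of any class and Ttr one past the start.

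Genes named as zinc finger factors formed the most one-sided group seen. They were picked out by symbol (Zfp, Zbtb, Zscan or Zkscan) after the values were known, so no test was made. Among the 36 peaks past the start on 34 such genes, 29 were negative and called, 7 were not called and none was positive and called, with a median of -1.39 over the called ones. Most encode DNA-binding factors, but Zfp36 and Zfp36l1 encode RNA-binding proteins of mRNA decay and had values of -1.30 and -1.0, per the authors' deposited table. The called values reached from -4.50 in Zfp420 to -0.42 in Zfp3, and Zbtb18, a transcriptional repressor gene, stood at -2.25 (log10 FDR -164, 4701 bp) in the authors' deposited table. Zfp260 had separate peaks at 4865 and 9456 bp with -2.19 and -1.55, per the authors' deposited table. Negative values were common on these genes in other features too: over all classes 355 of their called peaks were negative and 55 positive (86.6% negative), and 25 of 42 at the start (59.5%). Without the zinc finger symbols 47.6% of 540 called peaks past the start were negative, and the shares by distance were 28.1%, 44.6%, 55.0% and 56.9%.

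**Figure D4:**
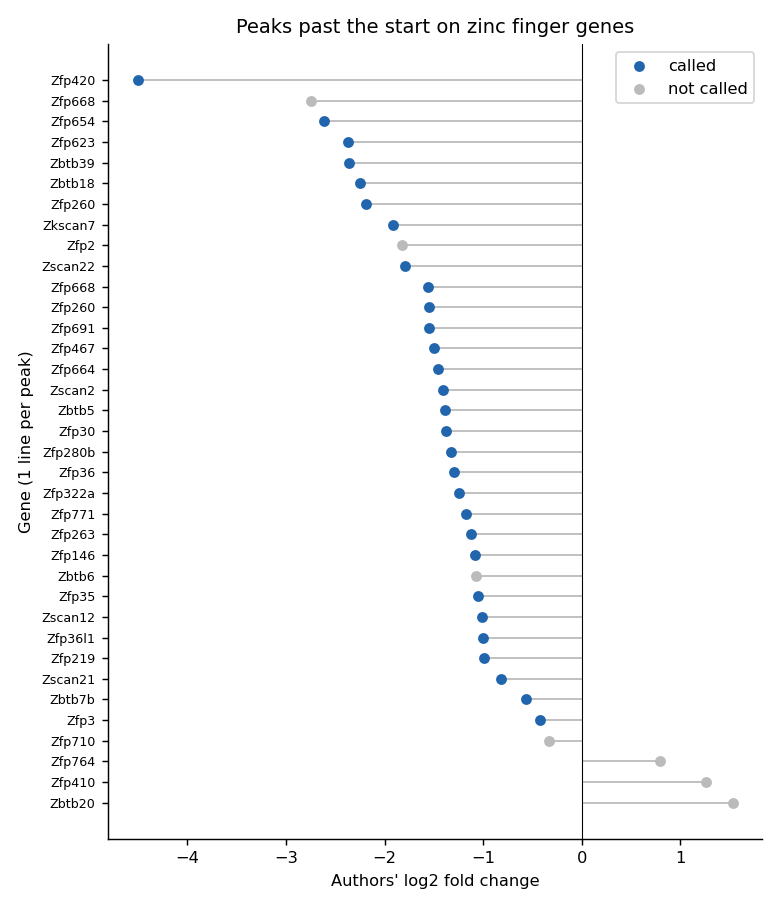
The authors' log2 fold change of each of the 36 peaks past the start on genes with zinc finger symbols, 1 line per peak, with called peaks in blue and peaks not called in grey. All 29 called peaks lie below 0, from -4.50 to -0.42, and the 3 positive values, on Zfp764, Zfp410 and Zbtb20, were not called.

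Within genes, the peak past the start was more often negative than the peak at the start. Of the 832 genes 166 also had a listed peak at the start, 434 one in the 3′ UTR, and 288 no other listed peak. Both kinds of 5′ UTR peak were called in 100 genes, taking the peak with the smallest FDR of each kind. Both were positive in 53, both negative in 27, only the one past the start negative in 18 and only the one at the start negative in 2. In 83 genes the peaks did not overlap, and there the split was 43, 21, 17 and 2. The median difference, past the start minus at the start, was -0.22 on the log2 scale, and -0.40 without overlap. The genes named here and in the next paragraph were chosen after their values were seen. Ddit3 is an example: the authors' deposited table gives -0.94 past the start and 1.22 at it. Map1lc3b, an autophagosome gene, stood at -0.91 and 0.71, Cflar, an inhibitor of caspase 8, at -1.15 and 0.87, and Ppp1r15a at -0.57 and 0.59, per the authors' deposited table. In the authors' deposited table the log10 FDR at the start was -2.02 for Ddit3, -13.1 for Map1lc3b, -1.53 for Cflar and -1.64 for Ppp1r15a. Those of Cflar and Ppp1r15a lay close to the threshold. The 2 opposite cases were Agbl5 (0.60 past the start, -3.07 at it) and Eci2, a gene of fatty acid oxidation (0.88 and -1.39), in the authors' deposited table. Their log10 FDR at the start was -1.95 and -4.07 in the authors' deposited table.

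Compared with the 3′ UTR of the same gene, the order was turned. Again the called peak with the smallest FDR of each kind was taken. Some genes had several 3′ UTR peaks, as 9804 were listed in 7263 genes, and how the choice bears on the signs was not tested. In 260 genes with both kinds called, 99 were negative in both and 79 positive in both. Another 64 were negative in the 3′ UTR only and 18 past the start only. The median difference, past the start minus 3′ UTR, was 0.24. Msmo1, a sterol synthesis gene, stood at 0.71 past the start and -3.38 in the 3′ UTR, and A1cf, a gene of apolipoprotein B mRNA editing, at 0.88 and -2.60, per the authors' deposited table. Slc25a15, the mitochondrial ornithine carrier gene, was alike (0.80 and -2.02, authors' deposited table). The reverse was seen in Eif1a (-2.36 and 0.76), Mapk6 (-2.01 and 0.92) and Zfp36 (-1.30 and 0.76) in the authors' deposited table. The log10 FDR of these 3′ UTR peaks was -9.41, -4.71 and -1.76 in the authors' deposited table, the last close to the threshold.

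**Figure D5:**
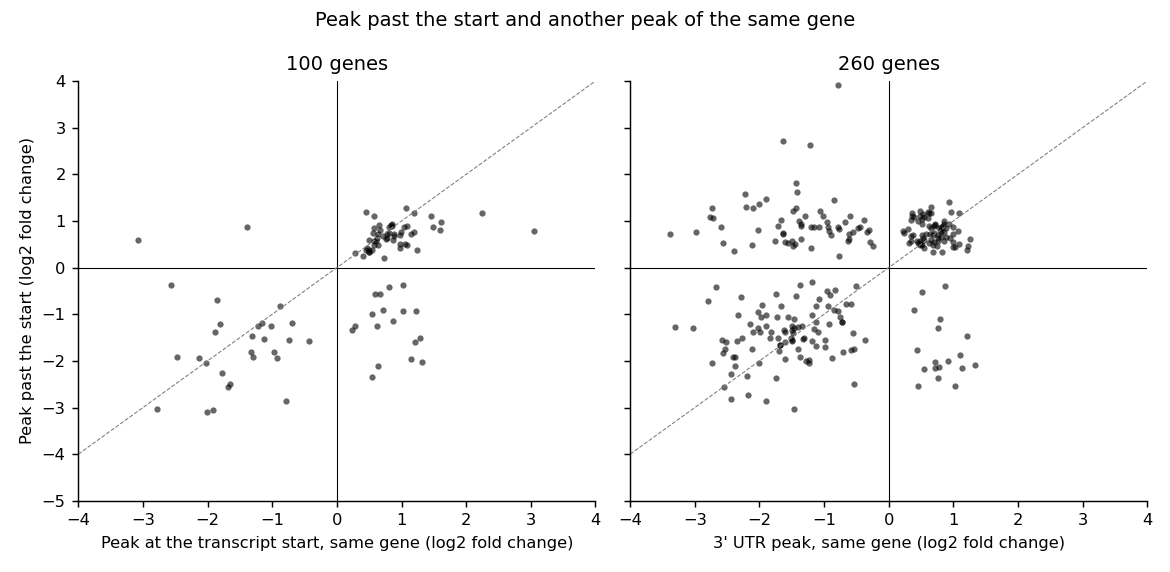
Log2 fold change of the peak past the start (vertical axis) against that of the peak at the start (left, 100 genes) and of the 3′ UTR peak (right, 260 genes) of the same gene, each point a gene, with the dashed line marking equal values. On the left 18 genes lie below 0 on the vertical and above 0 on the horizontal axis against 2 the other way, and on the right 18 against 64.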

How the data were processed

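Poly(A) RNA from mouse liver was fragmented, m6A-containing fragments were pulled down by antibody, and strand-specific libraries were made of the pull-down and the input, per the labels' protocols. The submitters' processing notes name HISAT2 2.1.0 and mm10. Peak caller, comparison settings and treatment of replicates were not given in the sources used here. The authors deposited, per the file headers, 1 row per peak with a log2 fold change, a log10 FDR (both treated here as a score, since 189 of 17692 rows lacked a gene name and held shifted cells), a p-value rounded to 2 decimals, a width and a distance from the transcript start. Rows without a gene name were left out. The lowest log10 FDR, -434, is a floor, the next value being -321. Depth is unknown, and no test was fitted, since that needs values per library.

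Members were the rows labelled 5′ UTR with a distance above 0. Shares of called peaks carry 95% Wilson intervals (counting error over peaks). Members, gene lists and classes were chosen with earlier results of these data known. Named genes were the 8 most negative and 8 most positive called peaks with an established symbol, the 4 farthest, nearest, widest and narrowest, the 1 on each side of the threshold, and all list members; any further gene was picked with its values in view. Alternatives changed the FDR threshold, the size, distance and width limits, the centring and the unit counted. Gene names were matched to RefSeq (GRCm38.p6) by symbol, Ensembl ID or synonym, and sequences are RefSeq's. The summary steps were tested on simulated data. Python 3.11.15, numpy 2.4.6, pandas 2.3.3, scipy 1.17.1 and matplotlib 3.10.9 were used.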

Additional observations from a re-analysis of the deposited data

How the results depend on the processing

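The even split of called peaks past the start depended on the threshold. At an FDR of 0.001 there were 245 negative and 173 positive peaks (58.6% negative), and with a change of at least 1 in size 78 positive peaks (73.8% negative). With a distance of at least 200 bp 54.9% were negative, and with at least 1000 bp 174 peaks were negative and 122 positive (58.8%). Limiting the width to 1000 bp left 124 and 129. Subtracting the median of all listed peaks, 0.34, gave 51.5%, 1 peak per gene 49.5%, and peaks at least 1 base from a RefSeq start 51.5%. By class, the width limit moved the share to 37.8% between 100 and 1000 bp and to 73.5% beyond 10000 bp; an FDR of 0.001, added after the data were seen, moved it to 67.0% beyond 10000 bp, 71.6% between 500 and 2000 bp wide and 57.8% above. The difference from peaks at the start was 15.4, 38.4, 29.0 and 19.8 points by width class and, added after the data were seen, 29.1 points from 200 bp on. Centring can turn the sign only of positive values below 0.34, and no named peak had one, so none could change sign. Besides the 20 values given here as moved, 64 stayed within the main share's 95% interval or, for counts, within 1.5 times. That leaves room for sizeable shifts, such as 197 positive peaks at a distance of at least 200 bp, or 39.2% negative in the nearest class at an FDR of 0.001. A distance not equal to 0 takes the same peaks. Rows without a gene name, whose feature cannot be read, and exon lengths, for lack of blocks, were not run. No paired analysis was possible because the table holds no values per library, and leaving out a replicate was not run for the same reason.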

Other observations

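Most peaks past the start, 784 of 872, were placed on protein-coding transcripts, where 256 of 512 called were negative. The 29 on processed transcripts had 14 negative of 20 called (70.0%, 95% Wilson interval 48.1 to 85.5), the 35 on retained-intron transcripts 7 of 18, the 21 on transcripts of nonsense-mediated decay 6 of 16 and the 3 on lncRNAs 3 of 3, of which 2 are nearly identical rows of Gm20634. Over all listed peaks the negative shares of called peaks were 55.4% on protein-coding transcripts, 46.7% on processed transcripts, 31.2% on retained-intron transcripts, 47.5% on those of nonsense-mediated decay and 67.3% on lncRNAs. No test was run.

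Some rows describe the same place more than once. The 872 rows lay in 851 separate stretches of the genome, and 19 stretches held 40 rows. Of the 12 peaks labelled with a gene but overlapping the RefSeq span of another in its place, 3 called examples in the authors' deposited table are that of Ndufaf2 within Smim15 (-1.34), that of Olfr56 within Tgtp2 (1.0) and that of Fgfr2 within Oat.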
